A study of Mus musculus with 12 samples.

Results

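Of the 6300 circRNAs in the deposited table of the mouse thymus, 1877 (29.8%) neither joined annotated exons nor had a circBase identifier. They were taken from the annotation type that the table gives each circRNA. The table calls 473 of them single-exon, 360 exon-intron, 442 intronic, 416 antisense and 186 intergenic. The other rows were 4330 circRNAs that join annotated exons, 62 circRNAs of the same 5 types that circBase already holds, and 31 rows inside the ribosomal RNA repeat on chromosome 17, which were left out. The thymuses came from male, wild type C57BL/6 mice of 2 weeks (2W), 6 weeks (6W) and 3 months (3M), with 2 libraries of ribosomal RNA-depleted, strand-specific RNA at each age. The study's methods call them biological replicates, and no treatment separates the ages. The whole organ was sequenced, so that each library holds the RNA of thymocytes, epithelium, fat, blood and other cells, and fewer cells of a type cannot be told apart from less RNA per cell.

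A circRNA arises when the spliceosome joins a donor site to an acceptor site that lies upstream of it, a step named back-splicing. Most circles consist of exons, and a single long exon can close on itself. Exon-intron circles keep an intron between their exons, and intronic circles can come from lariats, the looped introns that the debranching enzyme Dbr1 normally opens. Antisense circles lie opposite an annotated gene, and intergenic ones lie in no gene of the annotation that was used. The thymus is the organ in which T cell precursors rearrange their antigen receptor genes and are selected.

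The back-spliced junction of a member leaves an acceptor signal, AG, just before its first base and a donor signal, GT, just after its last one when canonical splicing made it. Its letters could be read only where an end fell into a RefSeq promoter window of 300 bases in GRCm38.p6, which was so for 33 ends of the members. The following windows of 30 bases are shown because they give both kinds of ends. Each holds 15 bases of the circle and 15 bases beyond it, is written in the direction of transcription, and has the 2 bases next to the circle in capitals.
Klf7, single-exon, acceptor, chr1:64079320-64079349, minus strand: ttccttcctccacAGacatgccttgagttg
Atp2b4, single-exon, acceptor, chr1:133753735-133753764, minus strand: gcatctctattccAGaggcctagccctcat
Arpp21, single-exon, acceptor, chr9:112187752-112187781, minus strand: ttcttcttctttcAGgttgtcgaccatgtg
Etv6, single-exon, donor, chr6:134248790-134248819, plus strand: ttgggagaatagcagGTgagtgagctcagc
Gm21992, exon-intron, acceptor of novel_circ_003038, chr19:4793995-4794024, minus strand: ttcctggcctctcAGgtaattggcgttccg
Gm21992, exon-intron, acceptor of novel_circ_003039, chr19:4793997-4794026, minus strand: tcttcctggcctcTCaggtaattggcgttc
Intergenic in the lncRNA gene 4933439C10Rik, acceptor, chr11:59506679-59506708, plus strand: cccaatcccttccAGccgcaattccatttc
Intergenic, partly overlapping the lncRNA gene Gm16973, acceptor, chr14:56700992-56701021, minus strand: tttttctctccctAGgttgttgagacagca
Opposite Tmem237, antisense, acceptor, chr1:59119995-59120024, plus strand: acagtttcccgggAGgtcatcgtggtttgc
Opposite Tmem237, antisense, donor, chr1:59120239-59120268, plus strand: cccggctcggcggtgGTcactgctggttag
Rag2, exon-intron, acceptor, chr2:101629105-101629134, plus strand: agcaaagccagtcCGccactaaaataggtc
Cic, exon-intron, acceptor, chr7:25228579-25228608, plus strand: gggaggggaggggACcaagggggtagaagg
Rbbp6, exon-intron, donor, chr7:122970607-122970636, plus strand: taacgtgtggactgaCCgctactgactgca

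Of the 33 ends, 25 carried the canonical letters. Some circles share an end, and of the 30 distinct ends 22 did (73.3%, exact binomial 95% interval from 54.1%). The 60 readable ends of exon-joining circRNAs, which lie at 40 distinct positions, all did. Their class places these ends at annotated exon borders, so this result was largely set in advance and gives no measure for the members. Some member ends, such as that of Arpp21, are shared with exon-joining circles. By type, 7 of 9 single-exon ends, 10 of 14 exon-intron ends, 4 of 6 antisense ends and 4 of 4 intergenic ends were canonical, and no intronic end could be read. The pair in Gm21992 had the same spliced length of 2294 nt and was shifted by 2 bases. The copy with AG at its end, novel_circ_003038, had 41 counts summed over the 6 libraries, and the copy without it, novel_circ_003039, had 3. A canonical signal within 2 bases of the given position was found for 27 of the 33 ends. The windows describe ends near gene starts, and ends elsewhere were not read.

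The libraries held between 10663 and 21914 junction counts, with fewest in 2W replicate 1 and most in 6W replicate 2. The smallest amount that 3 counts represent, the limit that a count of 0 allows, was 178 to 301 counts per 1000000 (CPM) of the scaled library. The reads carry no molecular identifiers and several may stem from one molecule, so these limits and all intervals of shares cover counting error only. The labelled tissue was seen in the mRNAs of the same libraries. The 10 thymocyte markers, among them Rag1, Cd4 and Cd8a, summed to 3375 to 4319 fragments per kilobase and 1000000 fragments (FPKM). Exocrine gland markers stayed at or under 1.14 FPKM and skeletal muscle markers at or under 1.02 FPKM. Adipocyte markers went from 12.2 and 11.03 FPKM at 2W to 79.9 and 78.1 FPKM at 6W and stood at 193 and 102 FPKM at 3M, with all 5 genes higher at 6W past the study threshold (a change of more than 1 on the log2 scale with a p below 0.05 before adjustment, in edgeR), which 5.36% of all gene sums passed from 2W to 6W. Red blood cell markers summed to 625 FPKM in 3M replicate 2 and to 116 to 239 FPKM in the others.

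By the spliced length in the table, single-exon and intronic members were short and exon-intron members long. The median spliced length was 324 nt for single-exon (95% interval of the median 301 to 360), 377 nt for intronic (330 to 436), 605.5 nt for antisense (507 to 763), 810.5 nt for intergenic (524 to 1148) and 3111 nt for exon-intron members (2530 to 4178). The exon-joining circRNAs had a median of 544 nt. Their lengths were also less spread, with quartiles at 387 and 867 nt against 930 and 11801 nt for exon-intron members. By spliced length, 172 members were longer than 10 kb, among them 102 exon-intron, 26 antisense, 25 intergenic and 19 intronic ones, whereas no single-exon and no exon-joining circRNA was. For all single-exon, intronic, antisense and intergenic members the spliced length equals the distance between the ends, so the table removes no intron from them. It does so for 186 of the 360 exon-intron members, and in the other 174 the length equals the span. For none of the exon-joining circRNAs does the length equal the span, so the lengths of the types are unlike measures. With the distance between the ends in place of the spliced length, the median was 8166 nt for exon-intron members. For exon-joining circRNAs it was 7472.5 nt. The members that were counted more often were longer, and among those with at least 6 counts the median was 467 nt for single-exon, 755 nt for intronic and 6133.5 nt for exon-intron members.

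**Figure D1:**
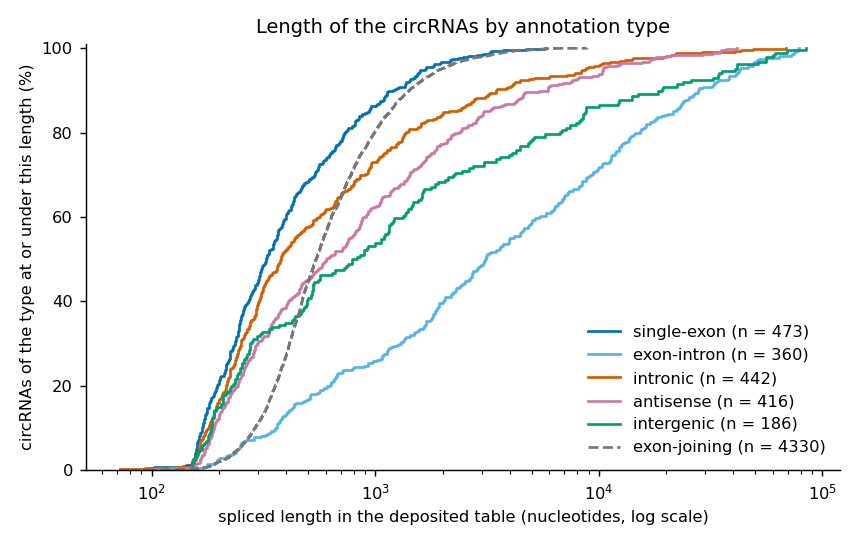
Cumulative share of circRNAs (y axis, percent) at or under a spliced length (x axis, nucleotides, log scale) for the 5 types of members and, dashed, the 4330 exon-joining circRNAs. The single-exon curve rises first, with a median of 324 nt, and the exon-intron curve last, with a median of 3111 nt, while the exon-joining curve is the steepest.

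Most members were rare. Together they held 18657 junction counts over the 6 libraries, and the exon-joining circRNAs held 66034. The median member had 3 counts and the median exon-joining circRNA 6. No circRNA of the table lacks a library with at least 2 counts, which bounds the table from below. Of the members, 748 (39.9%) had 2 counts in all, 1040 (55.4%) were counted in 1 library only and 141 (7.51%) in all 6. For exon-joining circRNAs, 24.7% were counted in 1 library only and 14.7% in all 6. Antisense members were most often in 1 library only, with 71.2%, followed by intronic members with 65.8%, intergenic with 46.8%, exon-intron with 46.4% and single-exon with 42.1%. A circRNA with 2 counts in all can here lie in 1 library only, and the types stood in the same order by the share of these. That share was 51.9% for antisense, 49.3% for intronic, 32.8% for intergenic, 30.6% for exon-intron and 30.2% for single-exon members. At equal counts the difference between members and exon-joining circRNAs was small, and the types were not compared at equal counts. Among circRNAs with 20 to 30 summed counts, 51 members were found in 5.61 libraries on average and 242 exon-joining circRNAs in 5.52. Among those with 6 summed counts, 80 members were found in 2.86 libraries and 326 exon-joining ones in 3.03. At least 6 summed counts, the minimum for the test, were reached by 521 members, of which 196 were single-exon, 114 exon-intron, 79 intronic, 73 antisense and 59 intergenic.

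A few circles carried a large part of the counts. The leading member was novel_circ_000493, a single exon of Themis of 1052 nt (chr10:28781691-28782742, plus strand). Themis encodes a signalling protein that thymocytes need for positive selection. Its counts were 303 and 398 at 2W, against 491 and 516 at 6W and finally 309 and 457 at 3M. These 2474 counts are 26.5% of all single-exon counts. In normalised counts it stood at 33339 ± 4179 CPM (SD, n = 2) at 2W, 32395 ± 2421 CPM at 6W and 31286 ± 2999 CPM at 3M, and the libraries of all ages overlapped. Its log2 fold change was -0.04 (standard error, SE, 0.23) from 2W to 6W and -0.05 (SE 0.23) from 6W to 3M, and the edgeR quasi-likelihood test gave adjusted p-values of 0.987 and 0.991.

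The next most counted single-exon member was novel_circ_004652 of Ep400, a chromatin remodeller of the SWI/SNF superfamily. It is 1370 nt long (chr5:110755397-110756766, minus strand) and had 35 and 54 counts at 2W, next 87 and 89 at 6W and lastly 41 and 82 at 3M. Its levels of 4217 ± 1000 CPM at 2W and 5668 ± 531 CPM at 6W did not overlap, yet the adjusted p of edgeR was 0.879. At 3M it stood at 4932 ± 1502 CPM and overlapped with 6W. Elovl5, a fatty acid elongase, held an intronic member of 479 nt, novel_circ_006008, with 12 and 9 counts at 2W, then 8 and 12 at 6W, followed by 7 and 4 at 3M. Aff1, a subunit of the super elongation complex, had an antisense member of 447 nt, novel_circ_004606, with 33 and 31 counts at 2W, against 28 and 48 at 6W and finally 23 and 33 at 3M. Both had overlapping libraries at 6W and 3M, while from 2W to 6W those of the Elovl5 circle did not overlap (1203 and 821 CPM against 556 and 714 CPM). The most counted intronic member was novel_circ_002782 of Zeb1, a zinc finger repressor, which spans 8315 nt. It shares its start with novel_circ_002783, an exon-intron circle of 72040 nt in the same gene. The intronic circle had 10 and 12 counts at 2W, next 21 and 30 at 6W and lastly 3 and 22 at 3M, and so the 3M libraries lay far apart. In Rbm39, a splicing factor, an intronic circle of 1320 nt, novel_circ_003658, had 9 and 8 counts at 2W, then 18 and 15 at 6W, followed by 11 and 8 at 3M. Pag1, an adaptor that restrains Src kinases, gave an exon-intron circle of 3031 nt, novel_circ_003743, with 16 and 17, 15 and 17, and 9 and 18 counts at the 3 ages. Neither the intronic Zeb1 circle nor those of Rbm39 and Pag1 was past the study threshold in either comparison.

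Members were spread over 1221 source genes, of which 948 had 1 member and 21 had 5 or more. Of the 1221 genes, 44.5% also had an exon-joining circRNA. The gene with most members was Satb1, a genome organiser of thymocytes, with 16 members of 4 types (5 single-exon, 2 exon-intron, 5 intronic and 4 antisense). They summed to 126 counts, between 16 and 26 per library. Bcl11b, a transcription factor of T cell commitment, had 10 members with 624 counts, Foxp1, a forkhead repressor of lymphocytes, 10 with 91 counts, and Fgfr2, a growth factor receptor, 10 with 78 counts. All 10 members of Fgfr2 were intronic or antisense. Themis had 8 members, as did Mbnl1 and B230118H07Rik. With each source gene taken once, the median mRNA level was 24.96 FPKM over the 1221 genes of members. Over the 2186 genes of exon-joining circRNAs it was 20.2 FPKM. By type the medians lay between 25.6 FPKM (exon-intron) and 27.3 FPKM (antisense, measured on the annotated strand).

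Some members had a near copy. Within 10 bases of both ends, 77 members (4.10%) had another circRNA on the same strand and 45 exon-joining circRNAs (1.04%) did. On the opposite strand, 72 members (3.84%) had such a partner, against 12 exon-joining circRNAs (0.277%). Antisense members were paired most often (29 of 416, 6.97%), then intergenic (5.38%) and intronic ones (4.75%), and single-exon ones least (0.634%). There were 58 pairs over opposite strands, and in 22 of them both ends were identical. Reads of a pair with identical ends are told apart only by strand. Whether the circRNA caller took the strand from the read or from the splice signal is not given in the sources used here, so the counts of opposite-strand pairs and of antisense members carry that doubt. Single-exon and exon-intron members also shared ends with exon-joining circles. At least 1 end was shared by 94 single-exon (19.9%) and 111 exon-intron members (30.8%), and by none of the other types. The same strand was required, and the class of the other types places them off annotated exons of that strand. Their lack of shared ends was thus largely set in advance.

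Morc3, a nuclear ATPase with a CW-type zinc finger, showed this most. The exon-intron circle novel_circ_002415 and the antisense circle novel_circ_002416 have the same ends (chr16:93847281-93853217). The circle on the gene's own strand, with a spliced length of 427 nt, had 54 and 74 counts at 2W, against 95 and 139 at 6W and finally 48 and 78 at 3M. The circle on the other strand, with a length of 5937 nt, had 43 and 46, 69 and 120, and 36 and 34 counts. In normalised counts the antisense circle was highest at 6W, with 4793 and 7136 CPM against 4312 and 4195 CPM at 2W, whereas the other circle overlapped between these ages, with 6599 and 8265 CPM at 6W against 5415 and 6748 CPM at 2W. Around them lay 4 further circles on the same strand as the first, of which the largest, novel_circ_002419, had 60 counts and is annotated as exon-joining, and 2 on the opposite strand. The 5 on the gene's strand summed to 563 counts and the 3 on the other to 361. The antisense circle fell from 5964 ± 1657 CPM at 6W to 2942 ± 645 CPM at 3M, with no overlap (log2 fold change -1.03, SE 0.32, adjusted p of edgeR 0.214). It was not past the threshold without 6W replicate 2 (-0.71) or 3M replicate 2 (-0.82), nor with total counts as the only scaling (-0.76). The circle on the gene's strand had a log2 fold change of -0.53 (SE 0.29, adjusted p of edgeR 0.877) in the same comparison. The mRNA of Morc3 had a log2 fold change of 0.01 (SE 0.15).

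Lmnb1, the gene of lamin B1, held 4 intronic circles with starts within 6 bases and an antisense circle, novel_circ_002910, whose ends match one of them. The antisense circle had 11 and 7 counts at 2W, next 2 and 7 at 6W and lastly 4 and 7 at 3M. The intronic set summed to 9 and 15, 3 and 4, and 4 and 4 counts. In both the 2W libraries were at or above those of 6W. In Elovl5, 3 intronic circles of the same 479 nt were shifted by up to 10 bases and summed to 127 counts. Of 34 such shifted sets, 13 had 1 length.

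Most intergenic members overlapped a gene of another annotation, RefSeq GRCm38.p6. This was so for 146 of 186 (78.5%) with strand ignored, and these held 87.6% of the intergenic counts. Of the 186, 133 (71.5%) lay wholly inside a gene. By the kind of gene that they overlap, the 146 comprised 84 members of lncRNA genes with 50.3% of the counts, 26 of protein-coding genes, 21 of antigen receptor loci, 11 of pseudogenes and 4 of other RNA genes, and 40 members overlapped none. Malat1, an abundant nuclear lncRNA, held 22 members with a median length of 223.5 nt, 6 on the plus and 16 on the minus strand. They summed to 32 and 31 counts at 2W, then 32 and 41 at 6W, followed by 21 and 29 at 3M. As a share of the junction counts that is 0.279% to 0.300% at 2W and 0.171% to 0.189% at the later ages. The lncRNA gene 2610307P16Rik held 16 members with 386 counts, 10 of them on the minus strand. Its leading circle, novel_circ_001568 (chr13:28668370-28669994, minus strand, 1625 nt), had 25 and 24 counts at 2W, against 57 and 60 at 6W and finally 26 and 38 at 3M. In normalised counts it stood at 2348 ± 225, 3764 ± 277 and 2616 ± 229 CPM, so that 6W did not overlap with either neighbour. The log2 fold changes were 0.68 (SE 0.35) and -0.52 (SE 0.34), with edgeR adjusted p-values of 0.874 and 0.877. Firre, a nuclear lncRNA of the X chromosome, had 3 members, Rmrp, the RNA of a ribonucleoprotein endonuclease, 2, and Gas5, a host of small nucleolar RNAs, 1. The intergenic member novel_circ_002168, which overlaps no RefSeq gene, had 22 and 9, 28 and 17, and 13 and 13 counts, with overlap between all ages.

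Several members lay inside antigen receptor loci. There were 9 in Igh, the immunoglobulin heavy chain locus, 1 in Igk, the kappa light chain locus, 9 in Tcrb and 3 in Tcra, the T cell receptor beta and alpha loci, and none in Igl, Tcrd or Tcrg. The Igh members summed to 17 and 12 counts at 2W, next 51 and 52 at 6W and lastly 78 and 51 at 3M. As a share of the junction counts, these are 0.159% and 0.108%, 0.272% and 0.237%, and 0.701% and 0.331%. All 4 later libraries were above those of 2W, in counts and in share. Of these counts, 153 belonged to novel_circ_001489, which lies on the plus strand opposite Ighm, the gene of the mu constant region (chr12:113421405-113421664, 260 nt). It had 16 and 10 counts at 2W, then 35 and 31 at 6W, followed by 35 and 26 at 3M. As a share, 6W replicate 2 (0.141%) lay below 2W replicate 1 (0.150%). Its log2 fold change was 0.77 (SE 0.43, edgeR adjusted p = 0.874) from 2W to 6W and 0.27 (SE 0.38, edgeR adjusted p = 0.986) from 6W to 3M. Tcrb members had 15 and 14 counts at 2W, against 18 and 22 at 6W and finally 14 and 13 at 3M. Their share was 0.141% and 0.126% at 2W and 0.0961% and 0.1004% at 6W, with both 6W libraries lower. Per 1000000 estimated mRNA counts, a scale chosen after seeing the data, they overlapped (0.908 and 0.822 at 2W, 0.880 and 0.975 at 6W), so that difference depended on the denominator. On that scale the Igh members (1.03 and 0.705 at 2W, 2.49 and 2.31 at 6W) and novel_circ_001489 (0.969 and 0.587 at 2W, 1.71 and 1.37 at 6W) did not overlap between these ages. Of the 9, 5 start in Trbc1, and all of these but novel_circ_004882 end in Trbc2, such as novel_circ_004880 and novel_circ_004881, both 8512 nt long and on opposite strands. Trbc1 and Trbc2 are near-identical constant region genes, so a read from one may have been placed in the other, and these circles are uncertain.

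A large circle in Igh, novel_circ_001494, was 1 of 2 members with an adjusted p under 0.05. It has ends 42975 nt apart (chr12:114392124-114435098, minus strand), and the table assigns it to the variable segment Ighv6-4. It was not counted in either 2W library. Its 6W libraries held 0 and 17 counts, and its 3M libraries 38 and 17. The 6W libraries thus disagreed, and 6W replicate 2 and 3M replicate 2 had the same count. It rose from 505 ± 715 at 6W to 2415 ± 1657 CPM at 3M (log2 fold change 2.13, SE 0.53, edgeR adjusted p = 0.037). Without 3M replicate 1 it was not past the study threshold (log2 fold change 1.22). From 2W to 6W it was at least 1.68-fold higher at 6W (edgeR adjusted p = 0.159), and without 6W replicate 2 no count remained at either age. In Igk, novel_circ_004936 of 22371 nt, from Igkv6-14 to Igkv6-13, had no count at 2W and 6W and 2 and 12 at 3M, at least 2.56-fold higher than at 6W (edgeR adjusted p = 0.412), and without 3M replicate 2, where the limit was 0.906, it was not past the threshold. Both segments at the ends of the Igk circle carry the family name Igkv6, and whether reads of one were placed in the other was not tested. The B cell markers Ms4a1, Cd79a and Jchain summed to 9.52 and 4.10 FPKM at 2W, next 18.3 and 8.44 FPKM at 6W and lastly 17.5 and 14.3 FPKM at 3M, so that the sums at 2W and 6W overlapped. All 3 had a positive log2 fold change from 2W to 6W, and Cd79a was past the study threshold (1.14). Between 6W and 3M, 1 of 3 was positive. Jchain was listed at 0 in 2W replicate 2 and 6W replicate 2, and the other 2 genes did not overlap between these ages. Ms4a1 had 1.65 and 2.37 FPKM at 2W, 3.80 and 3.17 FPKM at 6W, and 4.03 and 2.35 FPKM at 3M. Cd79a had 2.94 and 1.73 FPKM at 2W, 5.62 and 5.27 FPKM at 6W, and 2.70 and 3.67 FPKM at 3M. The part of B cell number in the counts of Igh and Igk was not tested. The mRNA table lists Ighv6-4 at 0 in all 6 libraries.

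**Figure D2:**
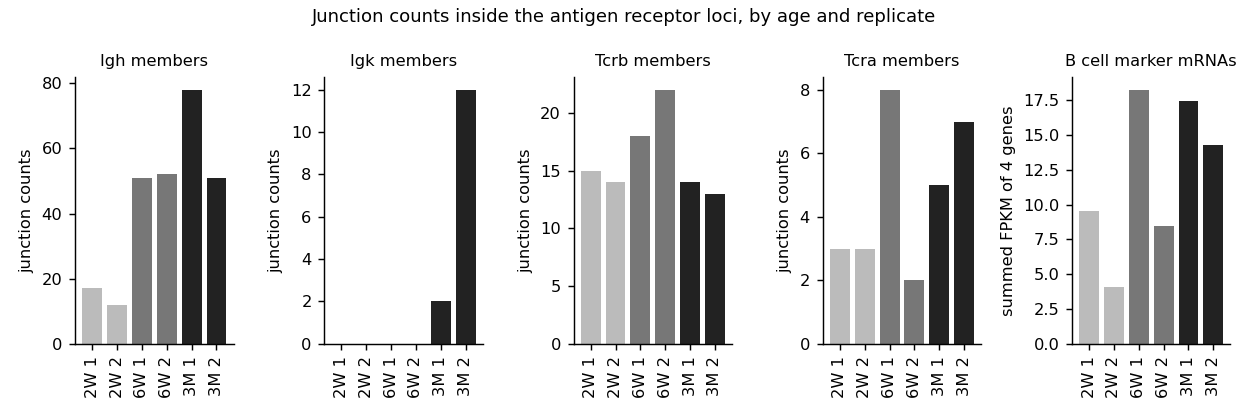
Bars give the summed junction counts of the members inside each antigen receptor locus in each library (age and replicate on the x axis), and in the right panel the summed FPKM of 3 B cell marker mRNAs. The axis label of that panel also counts the gene that was left out of the sum. Igh stands at 12 and 17 counts at 2W and at 51 to 78 counts later, whereas Tcrb stays between 13 and 22. The bars are not scaled for the 10663 to 21914 junction counts of the libraries.

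The course of each type over the ages was followed as its share of the junction counts of a library. The shares of intronic and antisense circles had the lowest ratios of 6W to 2W (0.552 and 0.661). Intronic members took 3.03% and 3.27% of the counts at 2W, then 1.70% and 1.78% at 6W, followed by 3.24% and 1.95% at 3M. Antisense members took 2.94% and 3.23%, 2.16% and 1.92%, and 3.54% and 2.47%. In both types the 6W libraries lay below all others. Within 3M, replicate 1 was near 2W and replicate 2 between the ages. The mean intronic share fell from 3.15% ± 0.17 (SD, n = 2) at 2W to 1.74% ± 0.05 at 6W and stood at 2.59% ± 0.91 at 3M. The exact 95% intervals of the intronic share were 2.71% to 3.37% in 2W replicate 1 and 1.52% to 1.90% in 6W replicate 1. The mean antisense share was 3.08% ± 0.21, 2.04% ± 0.17 and 3.00% ± 0.76.

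Single-exon members took 11.4% and 11.6% at 2W, against 9.73% and 9.86% at 6W and finally 10.6% and 10.9% at 3M, again with no overlap. Intergenic members took 2.36% and 2.25%, 2.17% and 1.79%, and 2.44% and 2.18%. Exon-intron members took 3.53% and 3.13%, 3.29% and 3.66%, and 3.74% and 3.38%, which overlapped at all ages. Taken as 1 class, the members held 23.3% ± 0.19 of the counts at 2W, 19.0% ± 0.03 at 6W and 22.2% ± 1.88 at 3M. With 2 libraries at an age the two-sided exact permutation test cannot give a p under 0.33, and 8 of the 10 relations (5 types, 2 comparisons) had this p, with an adjusted value of 0.417. The other 2 relations, both of exon-intron members, had p = 0.667 by the same exact test.

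These shares depend on the exon-joining counts, which make up most of the denominator. In counts, intronic members had 323 and 364 at 2W, next 319 and 390 at 6W and lastly 360 and 300 at 3M. Exon-joining circRNAs had 7678 and 7947, 14388 and 16835, and 7883 and 11303. Set against the estimated mRNA counts of the same libraries, a scale chosen after seeing the data, exon-joining circRNAs rose 1.56-fold from 2W to 6W and then stood at 0.682 of that level. On that scale intronic members were at 0.803 and antisense members at 0.958 of their 2W level at 6W, and at 1.07 of their 6W level at 3M for both types. Between 2W and 6W the intronic libraries did not overlap on that scale, whereas the antisense ones did. Between 6W and 3M the libraries of both types overlapped. Single-exon members were at 1.24, intergenic ones at 1.24 and exon-intron ones at 1.52 of their 2W level. The direction of the single-exon and intergenic types thus turned with the denominator, and that of the intronic type did not from 2W to 6W.

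**Figure D3:**
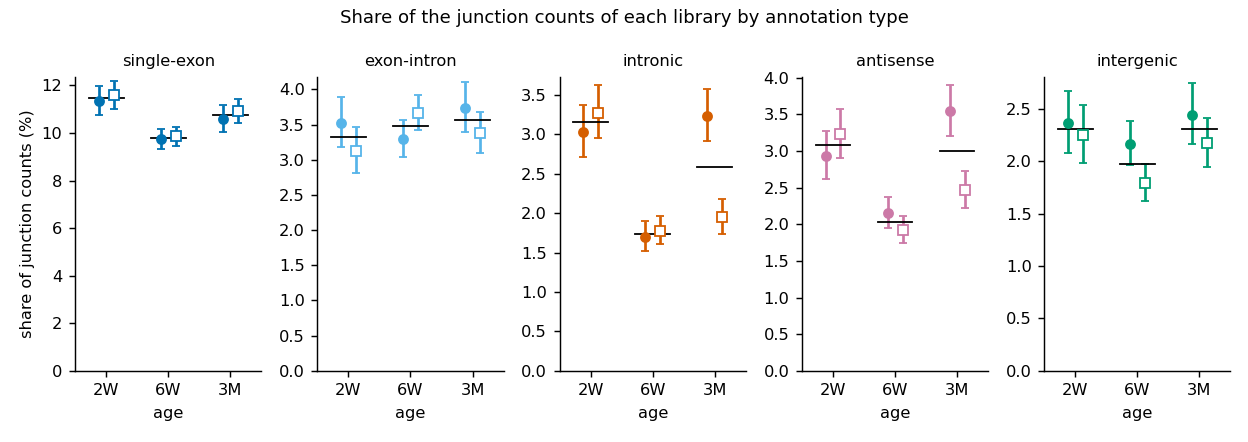
Share of all junction counts of a library (y axis, percent) held by each type at 2W, 6W and 3M, with filled circles for replicate 1, open squares for replicate 2, bars for exact 95% binomial intervals and a line for the mean. In the intronic panel the 6W libraries lie at 1.70% and 1.78%, below 3.03% and 3.27% at 2W, and the 3M libraries lie apart at 3.24% and 1.95%.

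Single members were tested with edgeR's quasi-likelihood F test in 1 fit over all 2779 circRNAs with at least 6 counts. From 2W to 6W, 18 of 521 members were past the study threshold at 6W, of which 9 had risen and 9 had fallen. Over all circRNAs tested the share was 4.03%, with 3.13% higher and 0.9% lower, and the members' share was 3.45%. No member had an adjusted p under 0.05, 21 had an unadjusted p under 0.05, and DESeq2 put 7 past the threshold and none under the adjusted limit. From 6W to 3M, 25 members passed, 12 higher and 13 lower at 3M. That is 4.80% of the members, against 4.5% of all circRNAs tested (1.3% higher and 3.2% lower). Of these, 2 had an adjusted p under 0.05, against 0.288% of all tested, and by DESeq2 none did. Non-overlapping libraries between 2W and 6W were found for 193 members (37.0%), against 36.8% of all tested, and between 6W and 3M for 179 (34.4%), against 35.5%. With both directions pooled, the shares of members called thus lay near those of all circRNAs. By direction, 1.73% of the members were called higher and 1.73% lower from 2W to 6W, and 2.30% higher and 2.495% lower from 6W to 3M. Leaving out 1 library moved the first count to 33 (without 2W replicate 1) or 11 (without 6W replicate 1), and the second to 13 (without 6W replicate 2) or 16 (without 3M replicate 1). With total counts as the only scaling 4 members were higher and 23 lower at 6W, and 18 higher and 7 lower at 3M.

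The direction of the fitted changes differed by type. From 2W to 6W the median log2 fold change was -0.50 over 79 intronic, -0.27 over 73 antisense, -0.02 over 59 intergenic, 0.17 over 196 single-exon and 0.49 over 114 exon-intron members, and 0.36 over all circRNAs tested. The exon-intron median lay 0.14 above that of all tested, but 0.76 above it without 2W replicate 1 and on its other side (-0.082) without 2W replicate 2. Without 2W replicate 2 the intronic and antisense medians were -0.13 and -0.096. The single-exon median turned to -0.049 with DESeq2, -0.11 with the default filter of edgeR and -0.024 without 6W replicate 2, and the intergenic one to 0.23 without 2W replicate 1 and 0.029 without 6W replicate 2. Without a filter on counts the intronic, antisense, intergenic and single-exon medians were 0. The fitted change was positive for 30 of 79 intronic and 29 of 73 antisense members, and for 69 of 114 exon-intron and 1411 of 2194 exon-joining ones. From 6W to 3M the medians were -0.07 for intronic, 0.21 for antisense, -0.08 for intergenic, -0.19 for single-exon and -0.69 for exon-intron members, and -0.33 over all tested. With total counts as the only scaling the median of all tested circRNAs was 0.06 from 2W to 6W and -0.08 from 6W to 3M, and that of single-exon members turned to -0.13 and then 0.01. The other types kept their sign from 2W to 6W with that scaling (-0.76 for intronic, -0.58 for antisense, -0.34 for intergenic and 0.19 for exon-intron members). From 6W to 3M the intronic and intergenic medians turned to 0.10 and 0.17. In this comparison the signs also turned with 1 library left out. The antisense median stood at -0.34 when 3M replicate 1 was left out and at -0.098 without 3M replicate 2, the single-exon one at 0.092 and the intronic one at 0.29 without 6W replicate 2, and the intergenic one at 0.35 without 6W replicate 1. With DESeq2 the intronic and intergenic medians were 0.071 and 0.12, and with the default filter of edgeR the antisense, exon-intron and single-exon ones were -0.29, 0.16 and 0.085. With only the 4 libraries compared, the intronic and intergenic medians were 0.025 and 0.066, and with the replicate number as a block the intergenic one was 0.031. The exon-intron median kept its sign without each library in turn. Under edgeR's default filter, which kept 41 members, the intronic median from 2W to 6W turned to 0.060 and lay 0.026 above that of all tested. Both comparisons share the 6W libraries. By type, the calls from 2W to 6W numbered 0 higher and 3 lower in intronic (3.80% of those tested), 0 and 2 in antisense (2.74%), 2 and 1 in intergenic (5.08%), 4 and 1 in single-exon (2.55%) and 3 and 2 in exon-intron members (4.39%), against 4.03% of all tested. For 3M against 6W they were 3 higher and 1 lower in intronic (5.06%), 2 and 2 in antisense (5.48%), 1 and 1 in intergenic (3.39%), 4 and 4 in single-exon (4.08%) and 2 and 5 in exon-intron members (6.14%), against 4.5%.

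**Figure D4:**
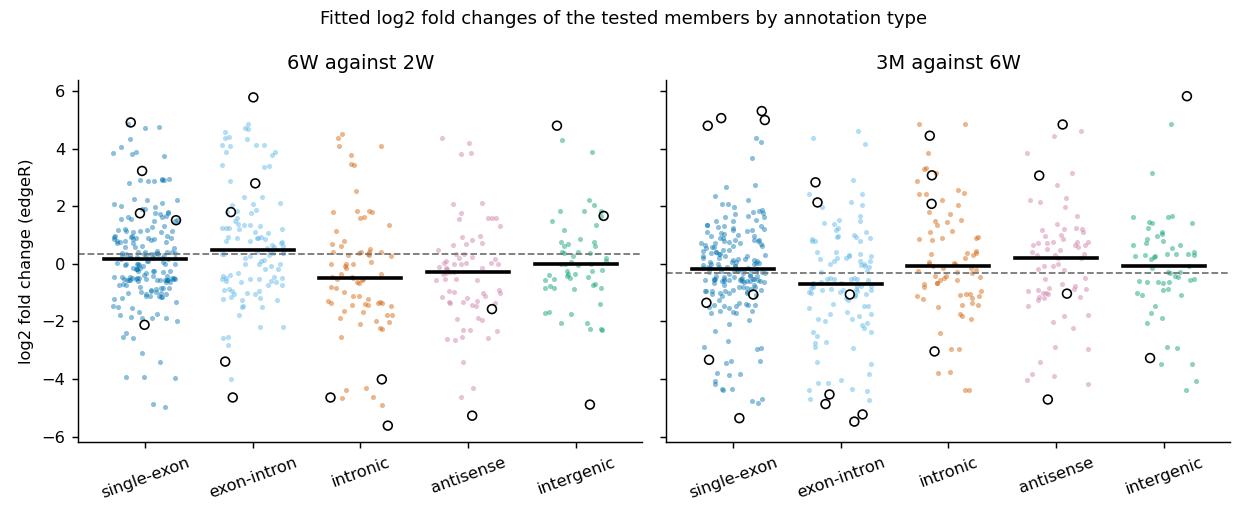
Fitted log2 fold change (y axis) of each of the 521 tested members by type, for 6W against 2W (left) and 3M against 6W (right). Bars mark the median of a type, the dashed line the median of all 2779 circRNAs tested, and open circles the 18 and 25 members past the study threshold. The intronic and antisense bars lie below the line on the left (-0.50 and -0.27 against 0.36).

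The member with the smallest p was novel_circ_001449, a single exon of Bcl11b of 366 nt (chr12:107989465-107989830, minus strand). It had 78 and 38 counts at 2W, then 86 and 111 at 6W, followed by 17 and 44 at 3M. The 3M libraries lay below those of 6W. In normalised counts the 2W libraries (7822 and 3465 CPM) lay on both sides of the 6W ones. It fell from 6287 ± 443 CPM at 6W to 2410 ± 1140 CPM at 3M (log2 fold change -1.35, SE 0.32, edgeR adjusted p = 0.020). Without 3M replicate 1 the log2 fold change was -0.97 and thus short of the threshold. A pair of circles on the same strand, novel_circ_001448 and novel_circ_001451, lie within 10 bases of it, and the 3 together had 93 and 53 counts at 2W, against 115 and 175 at 6W and finally 22 and 78 at 3M. Bcl11b also held an intronic circle of 366 nt, novel_circ_001443, which has a partner with the same ends on the other strand. It had 15 and 6 counts at 2W, next 2 and 11 at 6W and lastly 0 and 1 at 3M, a count ratio of 10.1 (95% counting interval 1.52 to 430) between 6W and 3M (edgeR adjusted p = 0.869). The Bcl11b mRNA stood at 139 and 130 FPKM at 2W, then 118 and 126 FPKM at 6W, followed by 89.4 and 97.2 FPKM at 3M. Its log2 fold change from 6W to 3M was -0.31 (SE 0.09, edgeR adjusted p = 0.259), and that of the 10 thymocyte markers had a median of -0.32 with 10 of 10 negative and none past the threshold.

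**Figure D5:**
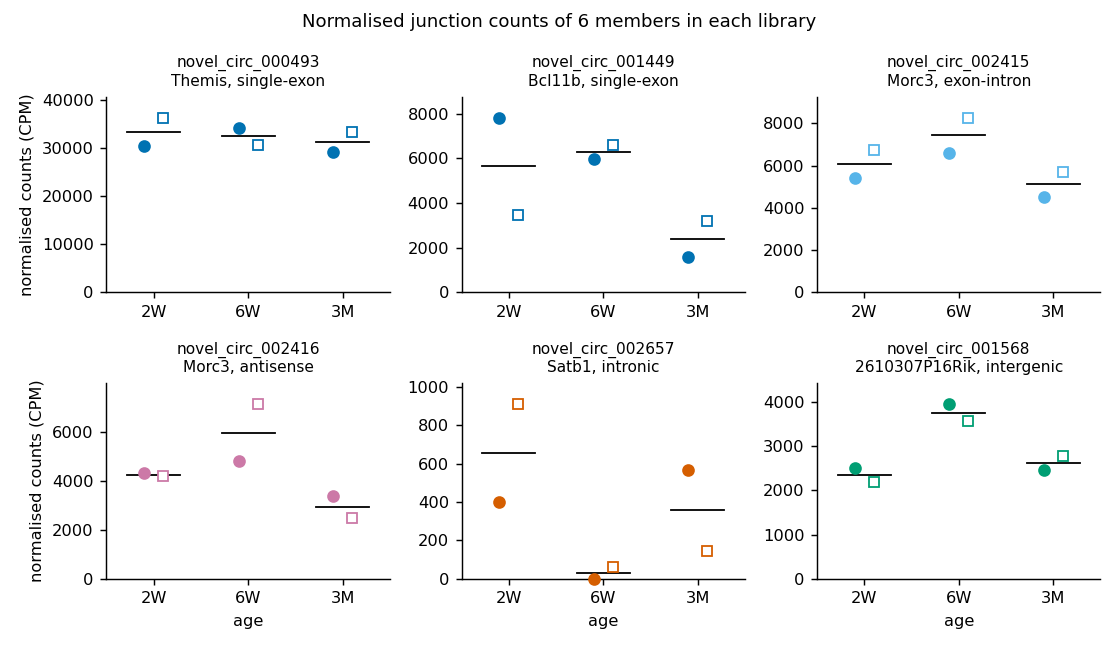
Normalised junction counts (y axis, CPM from 0) of 6 members at 2W, 6W and 3M, with filled circles for replicate 1, open squares for replicate 2 and a line for the mean. The Bcl11b circle lies at 5974 and 6600 CPM at 6W and at 1605 and 3216 CPM at 3M, while the Themis circle stays between 29165 and 36294 CPM.

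The intronic circle novel_circ_002657 of Satb1, 307 nt long, had 4 and 10 counts at 2W, against 0 and 1 at 6W and finally 6 and 2 at 3M. Its 6W libraries were below all others. The count ratio of 2W over 6W was 20.9 (95% counting interval 3.18 to 882, edgeR adjusted p = 0.569), and that of 3M over 6W was 10.3 (1.38 to 456, edgeR adjusted p = 0.877). The first was past the threshold without each library in turn, the second not without 6W replicate 1 or 3M replicate 1. The Satb1 mRNA stood between 720 and 929 FPKM in all libraries. In Calr, which encodes the chaperone calreticulin, the single-exon circle novel_circ_005640 of 210 nt had 8 and 13 counts at 2W, next 2 and 5 at 6W and lastly 6 and 4 at 3M. It fell from 994 ± 271 to 218 ± 112 CPM (log2 fold change -2.12, SE 0.80, edgeR adjusted p = 0.791), and was not past the threshold without 2W replicate 2 (-1.87) or 6W replicate 1 (-1.71).

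Ikzf1, the gene of the lymphoid factor Ikaros, had an exon-intron circle, novel_circ_000739 (1045 nt), with 0 and 2 counts at 2W, then 14 and 8 at 6W, followed by 2 and 3 at 3M. Its count ratio of 6W over 2W was 7.38 (95% counting interval 1.81 to 64.7, edgeR adjusted p = 0.874). Znrf3, a ubiquitin ligase that removes Wnt receptors, had an exon-intron circle, novel_circ_000721, with 3 and 6, 0 and 1, and 1 and 3 counts, and a ratio of 13.4 (1.86 to 588) of 2W over 6W. Elk3, an ETS repressor, had a single-exon circle, novel_circ_000635, with 0 and 0, 3 and 6, and 4 and 12 counts, which allows no lower limit above equality from 2W to 6W. The antisense circle of Lmnb1 described above had a log2 fold change of -1.57 (SE 0.79, edgeR adjusted p = 0.874) from 2W to 6W. The intergenic circle novel_circ_002810 in the pseudogene Gm2629 rose from 237 ± 51.6 to 789 ± 358 CPM (log2 fold change 1.67, SE 0.78, edgeR adjusted p = 0.874), and novel_circ_005039, which overlaps no RefSeq gene, had 1 and 5 counts at 2W and none at 6W.

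Between 6W and 3M, the exon-intron circle novel_circ_000387 of Hnrnpu, a nuclear matrix protein gene, had none in its 3M libraries after 10 and 3 counts at 6W, at least 1.54-fold lower (edgeR adjusted p = 0.454). Without 6W replicate 1 that limit was 0.630, which allows no fold, and the circle was not past the threshold. The Zeb1 circle novel_circ_002783 fell from 2216 ± 1071 to 1057 ± 160 CPM (log2 fold change -1.06, SE 0.44, edgeR adjusted p = 0.877). Gas5 gave novel_circ_000350, with 10 and 5 counts at 6W against 1 and 0 at 3M, a ratio of 11.7 (95% counting interval 1.79 to 491). Higher at 3M were the antisense circle novel_circ_004242 of AU022252, with 1 and 0 counts at 6W against 6 and 2 at 3M, and the single-exon circle novel_circ_005939 of Dennd4a, a Rab exchange factor gene, with none at 6W and 2 and 6 at 3M, at least 1.51-fold higher. Without 3M replicate 2 that limit was 0.906, and the circle was not past the threshold without it or without either 6W library. Of the 20 calls of named members, 19 were not past the threshold without at least 1 library. The source genes of the named members did not pass the threshold in either comparison (0 of 20 tested), with median log2 fold changes of -0.21 and -0.05. Over all gene sums, 5.36% passed in the first and 2.11% in the second comparison.

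Of the 14 genes known to form, bind or remove circRNAs and lariats, 13 were in the mRNA table. From 2W to 6W 1 rose past the study threshold and none fell, and from 6W to 3M none passed. The gene that rose was Adarb1, an enzyme that edits adenosines in double-stranded RNA, with 0.89 and 0.94 FPKM at 2W, against 2.57 and 1.83 FPKM at 6W and finally 2.86 and 2.36 FPKM at 3M (log2 fold change 1.17, SE 0.21, edgeR adjusted p = 0.057). Dbr1, which opens lariats, stood at 12.8 and 12.9 FPKM at 2W, next 11.7 and 11.7 FPKM at 6W and lastly 11.1 and 10.9 FPKM at 3M, a log2 fold change of -0.16 (SE 0.12) and then -0.09 (SE 0.12). Dhx9, a helicase that unwinds paired repeats, had a log2 fold change of -0.29 (SE 0.10) from 2W to 6W and Qk, a splicing factor that promotes circles, of -0.34 (SE 0.22). The median of the 13 genes was -0.09 from 2W to 6W and 0.00 from 6W to 3M, and that of all genes was -0.01 and 0.02.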

How the data were processed

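RNA-seq of 6 thymus libraries, 2 per age, was analysed from the deposited tables. For circRNAs, the authors deposited whole junction counts and RPM per library, with the ends, strand, spliced length and annotation type of each circRNA. For mRNAs, the authors deposited estimated counts (expected counts) and FPKM per transcript. The aligner, the circRNA caller and the build of these tables are not given in the sources used here. The submitters' processing notes list Bowtie 0.12.2 and mm8 without saying for which table. Of 6010 circRNAs whose source gene has 1 place in RefSeq GRCm38.p6, 98.8% lie inside it, and coordinates are therefore given in GRCm38. No genome sequence was used, and sequences come from RefSeq promoter windows (GRCm38.p6).

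RPM equals counts scaled to the library, and tests used the counts. Members are the circRNAs with no circBase identifier and a type other than annotated exons, without the chromosome 17 repeat. Members and lists were chosen with earlier results of these data known. All 6 libraries were fitted with edgeR 4.0.16 in R 4.3.3 (TMM, quasi-likelihood F test, age as the only term, prior count 0.125), for circRNAs with at least 6 summed counts, and for gene sums of rounded estimated counts after filterByExpr. For 665 genes, symbols that differ only in case were joined. P-values were adjusted by Benjamini-Hochberg over all features tested. DESeq2 1.42.0 was an alternative. The study's DESeq program was not used. CPM uses the TMM-scaled library size. Where an age had no count, the fold is a lower limit against a floor of 3 counts per library (the higher of the 2 floors). An age with 1 to 3 counts gave a count ratio with an exact conditional interval. Shares have exact Clopper-Pearson intervals, and were compared by exact permutation tests over libraries. Python 3.11.15, pandas 2.3.3 and scipy 1.17.1 served for the tables. In simulated counts with 200 circRNAs changed 4-fold between 2W and 6W, 39.0% of these passed the study threshold, and 1.50% the adjusted limit, among 2845 tested. For gene sums these were 88.0% and 85.0% among 14690 tested.

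Named are members with an adjusted p under 0.05, the member of each type, comparison and direction with the smallest p among those past the threshold without overlap, the 3 most counted of each type, and the 5 genes with most members. Of the genes tied for the last of these places, Themis, the one with the most counts, was taken. Members of Gm21992, Klf7 and the others with printed sequence, Malat1 and the receptor loci were chosen after their values were seen. One gene of the B cell list is not reported here and was left out of its sums. Nothing ties libraries of different ages to one another. The correlation of the deviations of same-numbered libraries from their age means was -0.014, 0.0065 and 0.035, and replicate numbers were not taken to pair samples.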

Additional observations from a re-analysis of the deposited data

How the results depend on the processing

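The number of members past the study threshold depended on the processing. From 2W to 6W it was 18 (9 higher, 9 lower), and 7 with DESeq2 (1 higher), 2 with filterByExpr (1 higher, 1 lower), 29 with only the 4 libraries compared (17 higher), and 11 to 33 without 1 library (4 to 13 higher, 3 to 20 lower). Scaling by total counts alone gave 4 higher and 23 lower, and with mRNA counts as the scaling, chosen after seeing the data, 18 were higher. For 3M against 6W it was 25 (12 higher, 13 lower), and 3 with DESeq2 (1 higher, 2 lower), 2 with filterByExpr (1 higher, 1 lower), and 13 to 26 without 1 library (4 to 13 higher, 6 to 13 lower). There, 7 were lower with total counts, 7 without a filter and 21 with mRNA counts as the scaling. Between 0 and 2 members had an adjusted p under 0.05 in these fits. Leaving out 1 library leaves 1 at its age, which is then assumed to vary like the others.

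The replicate number as a block changed the count to 11 (4 lower) from 2W to 6W and to 14 (4 higher) from 6W to 3M. The samples share only a number, since the deviations of same-numbered libraries did not correlate. With the block, the medians relative to all tested moved to -0.26 for single-exon members from 2W to 6W, and to 0.46 for antisense and 0.39 for intergenic ones from 6W to 3M.

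Medians are given as the difference from the median of all circRNAs tested. From 2W to 6W, the fits without 1 library ranged from -0.28 to -0.21 for single-exon (main value -0.18), -0.082 to 0.76 for exon-intron (0.14), -1.05 to -0.48 for intronic (-0.86), -1.05 to -0.45 for antisense (-0.63), -0.54 to -0.16 for intergenic (-0.38) and -0.36 to -0.22 for all members (-0.36). The exon-intron value reversed without 2W replicate 2. Without a filter the values were -0.26 for single-exon, intronic, antisense and all members and 0.028 for exon-intron ones. With filterByExpr, which left 41 members of 250 circRNAs, intronic members reversed to 0.026, antisense were at -0.28 and all members at -0.14. All members were at -0.29 with DESeq2 and with total counts, and intergenic ones at -0.50 with mRNA counts as the scaling. Between 6W and 3M, the ranges without 1 library were 0.014 to 0.29 for single-exon (0.14), -0.38 to -0.25 for exon-intron (-0.36), 0.011 to 0.69 for intronic (0.26), 0.035 to 0.59 for antisense (0.54), 0.18 to 0.57 for intergenic (0.25) and 0.040 to 0.25 for all members (0.10). Without a filter, exon-intron members were at -0.17, and antisense and all members at 0.17. With filterByExpr, 5 values reversed, to 0.14 for exon-intron, -0.22 for intronic, -0.31 for antisense, -0.055 for intergenic and -0.047 for all members.

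As log2 ratios of shares, counts per mRNA counts reversed single-exon (0.31 and then -0.33), intergenic (0.32 and -0.24) and all members (0.24 and -0.24), and exon-intron members from 6W to 3M (-0.43). Exon-intron members, whose ages overlap, also reversed with exon-joining counts as the denominator (-0.035), with at least 6 counts (-0.0092) and without 1 library (-0.021 to 0.15 from 2W to 6W and -0.042 to 0.11 from 6W to 3M). The median length rose to 467 nt (single-exon), 6133.5 nt (exon-intron), 755 nt (intronic) and 802 nt (all members) with at least 6 counts, and to 8166 nt (exon-intron) with the genomic span. With a pseudocount of 1 FPKM, source genes of intronic members were 0.40 above those of exon-joining circRNAs on the log2 scale, against 0.42 with 0.1 FPKM. Counting each junction end once, added after seeing the data, gave 73.3% canonical ends in place of 75.8%. The other differences of medians and log2 ratios of shares kept their direction and side. Medians not taken as a difference turned in more fits, as given above. The cause of the changes was not tested. In simulated counts 39.0% of 4-fold changes passed the threshold among circRNAs that reached 6 counts, and members under that minimum were not tested.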
